A study of Mus musculus with 31 samples.

Results

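The genes Chil1, Clec4d, Gpx3, Ptger4 and S100a8 are described here in the hippocampus of all mice of a T cell-driven limbic encephalitis model. They were selected on their low level at 2 days in mice given the antigen, and are 5 of the 15648 genes of the deposited table. Chil1, Clec4d, Gpx3 and Ptger4 stand on the study's own list for day 2, and S100a8 was added with earlier results of the same data known. Because the 2 day values chose them, the day 2 contrast is given below as a description with no test.

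The study asked how RNA of the hippocampus changes after an antigen is placed in hippocampal neurons of mice whose T cells recognize it. All 31 mice were adult OT-I/Rag1-/- animals. They carry a transgenic T cell receptor for an ovalbumin (OVA) peptide, and apart from the T cells that bear it the loss of Rag1 leaves them without lymphocytes that need a rearranged receptor. The mice received rAAV-hSyn-OVA-mCherry (rAAV-OVA group), which drives OVA and the fluorescent marker from the neuronal synapsin promoter, or rAAV-hSyn-mCherry (rAAV-control group), which carries the marker alone. The vector went into the dorsal CA1 field on both sides, every injected mouse was given the analgesic ketoprofen, and RNA of the left hippocampus was taken at 2, 5, 8 or 28 days. Each group held 4 mice, except for 3 rAAV-control mice at 8 days. The labels put the mice in 2 batches without saying what a batch was. At 2 and at 28 days each group had 2 mice of either batch, and all mice of 5 and 8 days belonged to batch 1. Libraries held between 19046977 and 57407902 counts, the median being 27024978. Levels are CPM, the counts of a gene for every 1000000 counts of its library after TMM scaling.

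Clec4d and Ptger4 encode receptors. Clec4d is a C-type lectin receptor of myeloid cells that signals through the Fc receptor gamma chain (Fcer1g), Syk and Card9 and shares a gene cluster with Clec4e, and Ptger4 is EP4, a receptor for prostaglandin E2 found on neurons, microglia and leukocytes. Chil1 encodes a secreted chitinase-like protein of reactive astrocytes and macrophages, Gpx3 a secreted selenoprotein that reduces peroxides with glutathione, and S100a8 one subunit of calprotectin, which neutrophils and monocytes release and which pairs with S100a9. In bulk hippocampus, fewer cells of a type and less RNA per cell cannot be told apart.

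Upstream sequences of all 5 genes were found in the RefSeq table (GRCm38.p6). Those of Clec4d and Ptger4 are shown because these genes differed between vectors at every later day, and that of S100a8 because it was the single one with a match to a searched motif. Each line gives the 250 bases before the start site, 5′ to 3′, with a motif match in capitals.
Clec4d: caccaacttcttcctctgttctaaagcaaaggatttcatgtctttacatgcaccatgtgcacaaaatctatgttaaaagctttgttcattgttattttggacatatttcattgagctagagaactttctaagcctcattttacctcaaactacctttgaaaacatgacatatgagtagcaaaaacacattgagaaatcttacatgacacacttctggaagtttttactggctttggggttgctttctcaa
Ptger4: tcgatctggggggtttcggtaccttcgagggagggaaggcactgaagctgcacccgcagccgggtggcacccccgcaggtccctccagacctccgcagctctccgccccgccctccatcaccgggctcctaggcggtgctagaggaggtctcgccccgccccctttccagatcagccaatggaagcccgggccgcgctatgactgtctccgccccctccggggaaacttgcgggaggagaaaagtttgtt
S100a8: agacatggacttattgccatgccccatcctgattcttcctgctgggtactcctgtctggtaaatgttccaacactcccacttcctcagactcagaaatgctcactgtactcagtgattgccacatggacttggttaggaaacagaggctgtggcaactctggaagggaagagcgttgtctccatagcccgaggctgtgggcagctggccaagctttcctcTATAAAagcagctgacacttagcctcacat
The stretches lie at chr6:123261857-123262106 (plus strand), chr15:5244188-5244437 (minus strand) and chr3:90668821-90669070 (plus strand). Clec4d had 35.2% G and C in this window and Ptger4 66.8%, beside a median of 52.4% over 32851 promoters. Motifs of 6 factors or elements were searched on both strands. The one match among the 5 members was TATAAA, the TATA element, which begins 30 bases before the S100a8 start site and occurs in 12.4% of all promoters. The AP-1 motif TGANTCA occurs in 6.75% of all promoters. The C/EBP motif TTGCNNAA occurs in 9.56% and the STAT motif TTCNNNGAA in 7.02%. The FOXO motif TGTTTAC occurs in 3.17% and the κB motif in 1.41%. Matches describe letters in this window and say nothing of a factor's binding.

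At 2 days the high values lay in a pair of rAAV-control mice, D740 and D743, the rAAV-control mice of batch 1. Chil1 measured 104 CPM in D740 and 202 CPM in D743, against 20.3 and 55.3 CPM in the batch 2 rAAV-control mice and 16, 20, 20.7 and 12.2 CPM in the rAAV-OVA mice. Gpx3 measured 29.5 and 55.1 CPM in D740 and D743, against 3.85 and 5.07 CPM in the other rAAV-control mice and 4.86, 6.48, 3.38 and 2.97 CPM with rAAV-OVA. S100a8 measured 9.93 and 28.3 CPM in these mice, against 0.237 and 0.451 CPM in the other rAAV-control mice and 0.292, 1.47, 0.487 and 0.22 CPM with rAAV-OVA. For Gpx3 and S100a8 the batch 2 rAAV-control mice lay within the rAAV-OVA range, and for Chil1 one of them, with 55.3 CPM, lay above it.

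For the receptor genes the same 2 mice were among the highest, and the groups did not overlap. Clec4d measured 2.53 and 11.7 CPM in D740 and D743, 0.415 and 0.625 CPM in the batch 2 rAAV-control mice, and 0.11, 0.295, 0.162 and 0.404 CPM with rAAV-OVA, the last of which rest on 3, 7, 5 and 11 counts. The batch 2 rAAV-control mice had 14 and 18 counts of Clec4d, so that the nearest mice of the 2 groups, at 0.415 and 0.404 CPM, were not apart beyond counting error. Ptger4 measured 2.9 and 9.85 CPM in D740 and D743, 2.01 and 3.78 CPM in the batch 2 rAAV-control mice, and 0.768, 1.3, 1.46 and 1.32 CPM with rAAV-OVA. For Clec4d and Ptger4 every rAAV-OVA mouse lay below every rAAV-control mouse, as for 1.94% of all genes, and for Chil1, Gpx3 and S100a8 the groups overlapped. D740 and D743 were the 2 highest of the 8 mice for 4 of the 5 genes, the exception being Ptger4, beside 4.53% of all genes. For Chil1 and S100a8 they were the 2 highest of all 31 mice, beside 0.173% of all genes. These shares are read as background only, since the same contrast chose the genes.

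**Figure D1:**
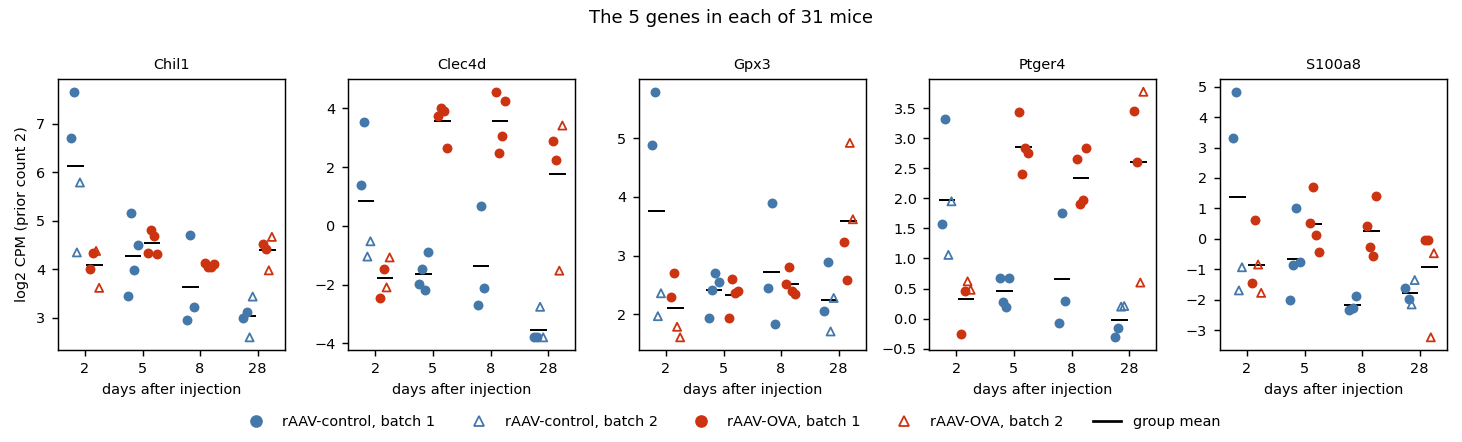
Level of each gene in every mouse as log2 CPM (vertical axis, prior count 2) against days after injection, with filled circles for batch 1, open triangles for batch 2 and a black line for the mean of the log2 values. The 2 filled blue points at 2 days are D740 and D743, with Chil1 at 104 and 202 CPM, while Clec4d and Ptger4 with rAAV-OVA lie above the controls from 5 days on.

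In the model with 2 surrogate variables the Log2FC of rAAV-OVA against rAAV-control at 2 days was −2.46 ± 0.45 (SE) for Chil1, −4.13 ± 0.89 for Clec4d, −2.52 ± 0.61 for Gpx3, −1.88 ± 0.42 for Ptger4 and −4.52 ± 0.97 for S100a8. By size of decrease S100a8 ranked 2, Clec4d 3, Gpx3 22, Chil1 25 and Ptger4 52 among the 15648 genes. None of all genes passed FDR ≤ 0.05 with an absolute Log2FC of at least 0.66 at 2 days in edgeR, where 1428 had an unadjusted p under 0.05 and 713 of these were lower. The study, using DESeq2 with 2 surrogate variables and shrunken fold changes, reported 5 genes at 2 days at the same limits. No DESeq2 test at 2 days is given here. The members are described by their values, because the day 2 contrast chose them. The sizes rested in large part on D743, without which the Log2FC was −1.72 ± 0.38 for Chil1, −2.35 ± 0.69 for Clec4d, −1.36 ± 0.51 for Gpx3, −1.27 ± 0.36 for Ptger4 and −1.89 ± 0.67 for S100a8. All 5 remained lower with rAAV-OVA.

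The batches gave different sizes of the day 2 difference. Within batch 1 the mean of the rAAV-control mice was 8.49 times that of the rAAV-OVA mice for Chil1, 35.2 times for Clec4d, 7.46 times for Gpx3, 6.16 times for Ptger4 and 21.6 times for S100a8. Within batch 2 these ratios were 2.29, 1.84, 1.4, 2.08 and 0.973 in the same order. For S100a8 the batch 2 values rest on 8 and 13 counts in the rAAV-control mice and 15 and 6 counts in the rAAV-OVA mice, and no difference was detectable at this depth. Ptger4 had the nearest ratios in the 2 batches. In batch 2 alone the fitted Log2FC was −1.20 ± 0.61 for Chil1, −0.89 ± 0.59 for Clec4d, −0.50 ± 0.24 for Gpx3, −1.06 ± 0.38 for Ptger4 and 0.06 ± 0.63 for S100a8. These values carry no test, because the day 2 contrast chose the genes.

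**Figure D2:**
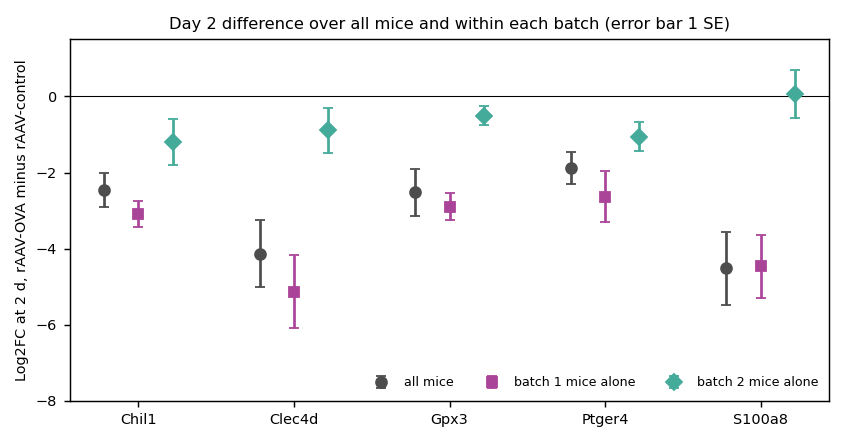
Log2FC of rAAV-OVA minus rAAV-control at 2 days (vertical axis) for each gene, over all mice (circles), in batch 1 alone (squares) and in batch 2 alone (diamonds), with bars of 1 SE. Each batch 2 value lies nearer 0 than the batch 1 value, and S100a8 in batch 2 lies at 0.06.

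Among rAAV-control mice of 2 days, batch 1 exceeded batch 2 by 4.04 times for Chil1, 13.7 times for Clec4d, 9.49 times for Gpx3, 2.2 times for Ptger4 and 55.5 times for S100a8. In the rAAV-OVA mice the same ratio of batches was 1.09, 0.714, 1.79, 0.744 and 2.49. D743 was above D740 for all 5 genes, from 1.87 times for Gpx3 to 4.62 times for Clec4d. At 28 days, where both vectors also had mice of both batches, batch 2 against batch 1 gave no member past the limits in edgeR (0 of 5, background 0%), none at an unadjusted p under 0.05, and none with DESeq2 or voom.

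Markers of other cell types were read in the same mice. Neutrophil markers could be followed for 2 of 15 genes, Mmp9 and Csf3r. Their sum was 15.6 CPM in D740, 38.7 CPM in D743 and 6.52 to 14.1 CPM in the other 6 mice of 2 days. S100a9 and Ly6g, which define the type, were not found by symbol among the 15648 genes. All 11 infiltrating monocyte markers were measured, with a summed level of 431 CPM in D740, 1220 CPM in D743 and 164 to 406 CPM in the others. All 12 reactive astrocyte markers summed to 2180 CPM in D740 and 6020 CPM in D743, against 1620 to 3530 CPM. D743 was thus the highest mouse of day 2 for these 3 lists, and D740 lay within or just above the others.

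Genes of the acute cytokine response set both mice apart. The 13 measured genes of that list summed to 216 CPM in D740 and 195 CPM in D743 and to 49.7 to 116 CPM in the other 6, and for 11 of the 13 these were the 2 highest mice, beside 4.53% of all genes. Of the C-type lectin receptor pathway, 10 of 14 genes were highest in these 2 mice. The same held for 2 of 12 prostaglandin E2 genes, 1 of 20 peroxide defence genes, 1 of 11 S100 proteins and receptors, none of 5 chitinase genes, 3 of 11 monocyte, 3 of 12 astrocyte and both neutrophil markers, and no marker of the other 6 cell type lists. Choroid plexus markers summed to 3040 and 2950 CPM in D740 and D743 and to 2660 and 1140 CPM in the batch 2 rAAV-control mice. With rAAV-OVA they summed to 352, 304 and 493 CPM in D683, BEC-B541 and BEC-B542, and to 6660 CPM in D684. The range of the other 6 mice thus covered D740 and D743 only through D684. Microglia markers (704 and 692 CPM against 546 to 756 CPM) and hippocampal neuron markers (3580 and 3230 CPM against 3420 to 4160 CPM) were near the others. Endothelial markers summed to 156 and 167 CPM in D740 and D743, below the 173 to 226 CPM of the other 6, and red blood cell markers to 403 and 189 CPM against 140 to 335 CPM. The part of these lists in the level of the 5 genes was not tested.

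Relatives of the 5 genes were read at 2 days as well. Clec4e, the neighbour of Clec4d and a receptor for mycobacterial glycolipids and dead cells, measured 4.4 CPM in D740 and 9.94 CPM in D743 and at most 0.404 CPM in the other 6 mice. Ptges, the inducible prostaglandin E synthase, measured 10.4 and 16.5 CPM in D740 and D743 and 4 to 7.91 CPM in the others. Ptgs2, which encodes the cyclooxygenase upstream of it, had no such pattern, with 26 CPM in D740 and 15.4 CPM in D743 and 18 to 30.6 CPM in the others. Chil3, a chitinase-like gene of macrophages, measured 11.2 CPM in D743 and 3.28 CPM in D740, against 1.51 to 4.85 CPM. The intracellular peroxidases Gpx1 and Gpx4 were highest of day 2 in the rAAV-OVA mouse D684, with 142 and 681 CPM. Gpx1 came next in D743 with 141 CPM and D740 with 131 CPM, against 42.7 to 83.4 CPM in the remaining mice. Gpx4 measured 428 CPM in D740 and 280 CPM in D743, against 150 to 344 CPM in the remaining mice.

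In rAAV-control mice all 5 genes were lower at 28 days than at 2 days, which the choice of the genes in part fixes and is given as a description. At 2, 5, 8 and 28 days Chil1 had means of 95.2 ± 78.9, 21.2 ± 10.8, 14.4 ± 10.2 and 8.31 ± 1.96 CPM (SD, n = 4, and n = 3 at 8 days). S100a8 went from 9.73 ± 13.2 CPM to 0.776 ± 0.784, 0.153 ± 0.0401 and 0.228 ± 0.0751 CPM over these days. Gpx3 went from 23.4 ± 24.2 CPM to 5.34 ± 1.15, 7.89 ± 6.05 and 4.87 ± 1.82 CPM. The SD at 2 days was close to or above the mean for these genes.

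Ptger4 had means of 4.64 ± 3.55, 1.31 ± 0.243, 1.78 ± 1.34 and 0.929 ± 0.179 CPM over the same days in rAAV-control mice. Clec4d had 3.81 ± 5.33, 0.272 ± 0.144, 0.589 ± 0.811 and 0.0192 ± 0.0385 CPM, and at 28 days it had 2 counts in D843 and 0 counts in the other 3 mice. Pooled over the groups, Clec4d was 168 times higher at 2 days than at 28 days in controls (361 against 2 counts, 95% interval 46.2 to 1390, exact and for counting error only). D743 held 275 of the 361 counts, and the ratio was 51.3 without it (13.8 to 430) and 25.6 without D740 and D743 (6.53 to 220). The Log2FC of 2 against 28 days was 6.58 ± 1.31 for Clec4d, which depends on the prior count, 3.32 ± 0.48 for Chil1, 2.19 ± 0.62 for Gpx3, 1.98 ± 0.43 for Ptger4 and 4.71 ± 1.05 for S100a8. Every rAAV-control mouse of 2 days lay above every one of 28 days for Chil1, Clec4d and Ptger4, as for 8.83% of all genes, which the choice of the genes in part fixes, and the mice overlapped for Gpx3 and S100a8.

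The fall in controls also differed by batch. Within batch 1 the mean at 2 days was 18.5 times that at 28 days for Chil1, 7.35 times for Gpx3, 8.2 times for Ptger4 and 87 times for S100a8. Within batch 2 it was 4.51 times for Chil1, 1.12 times for Gpx3, 2.68 times for Ptger4 and 1.45 times for S100a8. Without D740 and D743 the fitted Log2FC of 2 against 28 days was 2.02 ± 0.40 for Chil1, 3.83 ± 1.16 for Clec4d, 1.22 ± 0.39 for Ptger4, 0.04 ± 0.50 for Gpx3 and 0.54 ± 0.78 for S100a8. Without D743 alone it was 2.54 for Chil1, 4.67 for Clec4d, 0.90 for Gpx3 and 1.84 for S100a8. Without both mice the values of Gpx3 and S100a8 lay within 1 SE of 0. Leaving out both was chosen after seeing the data. None of these values carries a test, because the controls of 2 days were among the mice that chose the genes.

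Controls of 5 and 8 days took no part in the choice and could be tested against those of 28 days. In edgeR 0 of 5 members passed at 5 against 28 days (background 0%) and 0 of 5 at 8 against 28 days (background 0.00639%). Chil1 alone had an unadjusted p under 0.05, at 5 days, with a Log2FC of 1.18 ± 0.46 and an FDR of 0.42 in edgeR's quasi-likelihood test, although all 4 mice of 5 days exceeded all 4 of 28 days. The same held for Clec4d at 5 days (2 of 5 members, background 6.79%) and, alone among the members, at 8 days (background 5.04%), on as few as 4 and 2 counts a mouse against at most 2 at 28 days. DESeq2 and voom called 0 members in either comparison, and DESeq2 had 2 at an unadjusted p under 0.05 at 5 days and 1 at 8 days. Mouse D720 stood highest of the 3 rAAV-control mice of 8 days for Chil1, Clec4d, Gpx3 and Ptger4, with 26.1, 1.52, 14.8 and 3.32 CPM, and its summed reactive astrocyte markers were 3320 CPM against 508 and 941 CPM.

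From 5 days on the receptor genes were higher with the antigen. At 5 days Clec4d measured 13.5, 16.2, 15 and 6.3 CPM with rAAV-OVA and 0.179, 0.292, 0.148 and 0.466 CPM in controls. Ptger4 measured 10.8, 5.24, 7.04 and 6.64 CPM with rAAV-OVA and 1.52, 1.13, 1.08 and 1.52 CPM in controls. No mouse of one group reached the range of the other for either gene. The Log2FC was 4.15 ± 0.88 for Clec4d (FDR = 0.0012, edgeR) and 1.76 ± 0.44 for Ptger4 (FDR = 0.0042, edgeR). Thus 2 of 5 members rose, beside 9.56% of all genes, and for the same 2 the groups were apart, as for 21% of all genes. Without covariates the Log2FC was larger, 5.43 for Clec4d and 2.49 for Ptger4, and with the batch label or from the mice of 5 days alone it was 5.43 and 5.41 for Clec4d and 2.49 and 2.51 for Ptger4. Leaving out the control D755 gave 5.18 for Clec4d.

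RNA of the genes for secreted proteins did not differ beyond the spread at 5 days. Chil1 had 23.3 ± 4.03 CPM with rAAV-OVA and 21.2 ± 10.8 CPM in controls (Log2FC −0.15 ± 0.46, FDR = 0.83, edgeR). Gpx3 had 5.02 ± 0.939 and 5.34 ± 1.15 CPM (Log2FC 0.03 ± 0.63, FDR = 0.98, edgeR), and S100a8 had 1.57 ± 1.13 and 0.776 ± 0.784 CPM (Log2FC 0.24 ± 1.03, FDR = 0.89, edgeR). The sign of the difference changed with the covariates for Chil1 and Gpx3, and for S100a8 the Log2FC was 1.02 without covariates or with the batch label and 1.05 from the mice of 5 days alone, called in none of these.

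At 8 days Clec4d measured 23.6, 5.45, 8.32 and 18.9 CPM with rAAV-OVA and 0.0835, 1.52 and 0.159 CPM in controls. Ptger4 measured 6.19, 3.66, 3.86 and 7.02 CPM with rAAV-OVA and 0.877, 3.32 and 1.15 CPM in controls. The control D720 came closest to the rAAV-OVA mice for both. The Log2FC was 4.73 ± 0.96 for Clec4d (FDR = 0.0017, edgeR) and 1.66 ± 0.46 for Ptger4 (FDR = 0.014, edgeR), so that 2 of 5 members rose beside 9.36% of all genes. With no covariates Ptger4 had a Log2FC of 1.55 ± 0.56 and an FDR of 0.066 in edgeR (range over all alternatives 0.0024 to 0.2), and it also lost its call without D701 or without D722. From the mice of 8 days alone the Log2FC was 4.62 for Clec4d (FDR = 0.059, edgeR, range over all alternatives 4.3e-06 to 0.059) and 1.57 for Ptger4 (FDR = 0.096, edgeR), so that neither was called although the sizes were near those over all mice. For Clec4d the Log2FC was 3.80 without D722, 3.81 without D696, 4.09 without D701 and 5.99 without D720, and it stayed called in each.

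S100a8 measured 1.29, 0.749, 0.609 and 2.56 CPM with rAAV-OVA at 8 days and 0.125, 0.134 and 0.199 CPM in controls. All rAAV-OVA mice were above all controls, as for Clec4d and Ptger4 (3 of 5 members, background 14.4%), but the controls rest on 3, 3 and 5 counts. The Log2FC of S100a8 was 2.37 ± 1.28 with an FDR of 0.19 in edgeR. It was larger but still not called without covariates (3.07), with the batch label (3.07, FDR = 0.069, edgeR) and from the mice of 8 days alone (3.10 ± 0.65, FDR = 0.059, edgeR, range over all alternatives 0.059 to 0.44). Chil1 (Log2FC 0.24 ± 0.49, FDR = 0.75, edgeR) and Gpx3 (Log2FC −0.71 ± 0.65, FDR = 0.45, edgeR) overlapped between the groups, and D720 had more of both than any rAAV-OVA mouse.

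At 28 days 3 of 5 members rose, beside 12.7% of all genes. Clec4d measured 7.28, 4.69, 0.276 and 10.7 CPM with rAAV-OVA, of which 0.276 CPM was mouse D844, against 2 counts over all 4 controls. Pooled over the group this was 287 times the control level (660 against 2 counts, 95% interval 79.1 to 2370, exact and for counting error only), and the FDR was 0.0023 in edgeR. The fitted Log2FC, which depends on the prior count, was 6.16 ± 1.41, from 5.31 without D851 to 8.63 without D843. It was 7.87 without covariates and 8.02 with the batch label. In batch 2 alone Clec4d was not called (Log2FC 6.96 ± 2.50, FDR = 0.37, edgeR, range over all alternatives 1.5e-05 to 0.37). Ptger4 measured 10.8, 6.02, 1.45 and 13.5 CPM with rAAV-OVA, D844 again lowest, and 0.732, 0.824, 1.08 and 1.08 CPM in controls (Log2FC 2.15 ± 0.46, FDR = 0.0014, edgeR). Its Log2FC was 3.09 without covariates, 3.08 with the batch label, 3.11 from the mice of 28 days alone and 3.48 in batch 1 alone, and in batch 2 alone it was 2.78 ± 1.21 and not called (FDR = 0.38, edgeR, range over all alternatives 1.7e-05 to 0.38). Chil1 measured 23, 21.4, 15.7 and 25.4 CPM with rAAV-OVA and 7.9, 8.6, 6 and 10.7 CPM in controls. Groups were apart for these 3 genes, as for 15% of all genes, but Chil1 did not pass (Log2FC 1.07 ± 0.47, FDR = 0.084, edgeR), while it passed in DESeq2 (Log2FC 1.09 ± 0.45, FDR = 0.045, range over all alternatives 0.015 to 0.37), and in edgeR without covariates, with the batch label, with at least 15 counts in every mouse, from 28 day mice alone or in batch 1 alone.

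Gpx3 was the member whose call at 28 days rested most on 1 mouse. It measured 9.34, 5.95, 30.1 and 12.2 CPM with rAAV-OVA and 4.1, 7.41, 3.19 and 4.77 CPM in controls, so that the groups overlapped. The Log2FC was 1.70 ± 0.61 with an FDR of 0.034 in edgeR, and it did not pass in voom (FDR = 0.076, range over all alternatives 0.015 to 0.91). Without D844, which had 30.1 CPM, the Log2FC was 0.13, and the call was lost when any of 6 of the 8 mice was left out, D661, D705, D843, D844, D845 or D851. It was also lost from the mice of 28 days alone (Log2FC 1.56, FDR = 0.063, edgeR), in batch 1 alone (0.46, FDR = 0.49, edgeR) and in batch 2 alone (2.38, FDR = 0.36, edgeR). Within batch 1 the rAAV-OVA mean of Gpx3 was 1.33 times the control mean and within batch 2, which held D844, 5.32 times.

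Among the rAAV-OVA mice of 28 days D844 combined the highest Gpx3 with the lowest Clec4d, Ptger4, Chil1 and S100a8. Its infiltrating monocyte markers summed to 168 CPM, against 828 to 1740 CPM in the other rAAV-OVA mice of 28 days and 84.7 to 110 CPM in controls. Its summed reactive astrocyte markers lay within the control range of 536 to 893 CPM. Its hippocampal neuron markers, in contrast, summed to 1710 CPM, below the control range of 3720 to 4320 CPM and among the other rAAV-OVA mice at 1370 to 3290 CPM. The part of these differences in its Gpx3 level was not tested.

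S100a8 did not differ between vectors at 28 days beyond the spread. It measured 0.909, 0.916, 0.0345 and 0.651 CPM with rAAV-OVA and 0.256, 0.183, 0.154 and 0.321 CPM in controls (Log2FC 0.59 ± 1.23, FDR = 0.74, edgeR). The size moved with the setting, to 1.43 without covariates, 1.45 from the mice of 28 days alone, 1.1 without D844 and 0.11 in voom. In batch 1 alone it was 2.06 ± 0.43 (FDR = 0.054, edgeR, range over all alternatives 0.054 to 0.96), where the rAAV-OVA mean was 4.16 times the control mean, beside 1.44 times in batch 2. D844 had 1 count of it, the lowest of all 31 mice.

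**Figure D3:**
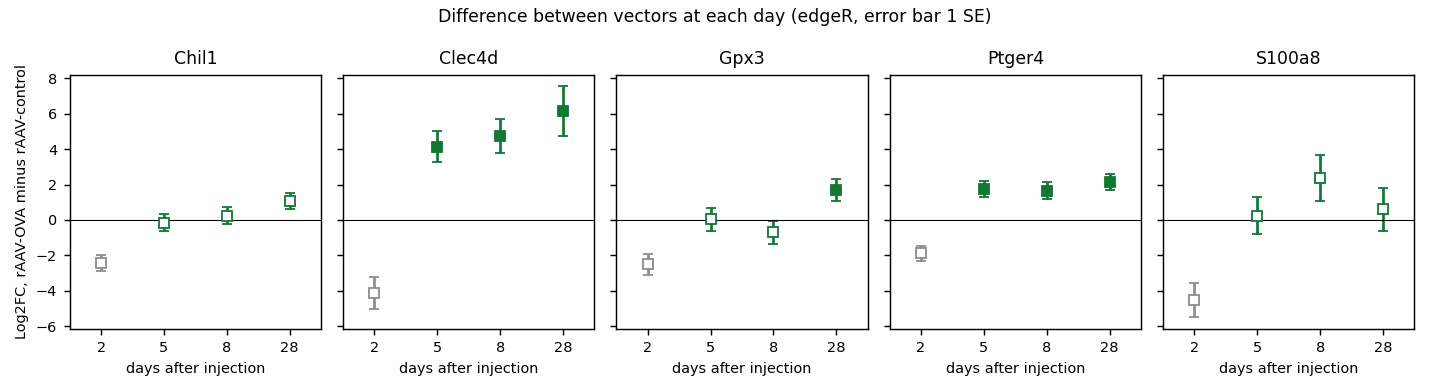
Log2FC of rAAV-OVA minus rAAV-control (vertical axis) at each day after injection, with bars of 1 SE. Filled squares passed FDR ≤ 0.05 and an absolute Log2FC of 0.66, open squares did not, and grey squares at 2 days are descriptions with no test; Clec4d goes from −4.13 at 2 days to 4.15 at 5 days.

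Tests of the change of the response with time gave no member. The response at 5 days differed from that at 28 days for 0 of 5 members (background 6.18%) and from that at 8 days for 0 of 5 (background 0.179%) in edgeR. No member had an unadjusted p under 0.05 in edgeR or voom, and DESeq2 gave 2 at that level for 5 against 28 days and called none. Within the rAAV-OVA group, 0 of 5 members differed between 5 and 28 days (background 11.2%) and 0 of 5 between 8 and 28 days (background 2.85%). At an unadjusted p under 0.05 edgeR gave Gpx3 at 5 against 28 days (Log2FC −1.52 ± 0.63, FDR = 0.086), and Gpx3 (Log2FC −1.43 ± 0.61, FDR = 0.16) and Clec4d (Log2FC 1.56 ± 0.68, FDR = 0.17) at 8 against 28 days. DESeq2 called 1 member at 5 against 28 days and none at 8 against 28 days, and voom called none in either. These misses do not show that the levels were alike.

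Of the C-type lectin receptor pathway, 9, 10 and 11 of 14 genes rose on days 5, 8 and 28 and none fell, with a median Log2FC of 1.69, 1.95 and 1.65 against a median of −0.01, −0.03 and 0.01 over all genes. Over all genes 9.56, 9.36 and 12.7% were called higher on these days and 4.67, 0.588 and 4.86% lower, and the counts of the other lists stand beside the same shares. Clec4e rose by a Log2FC of 4.0 ± 1.08 at 5 days (FDR = 0.0075, edgeR) and 5.12 ± 1.24 at 8 days (FDR = 0.0062, edgeR). At 28 days its Log2FC was 6.69 ± 1.72 (FDR = 0.0052, edgeR), where controls had only 0.0201 ± 0.0401 CPM. Clec12a, an inhibitory receptor for dying cells, rose by 3.33 ± 0.56, 3.42 ± 0.59 and 4.66 ± 0.67 at the 3 days. Clec4n, which binds fungal mannans, rose by 3.12 ± 0.59 at 5 days, 2.73 ± 0.62 at 8 days and 3.21 ± 0.68 at 28 days. Clec7a, the β-glucan receptor Dectin-1, rose by 4.51 ± 0.75 at 28 days.

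Of the prostaglandin E2 pathway, 4, 2 and 3 of 12 genes rose on days 5, 8 and 28, and 1 fell at 28 days, beside 9.56, 9.36 and 12.7% of all genes called higher and 4.86% called lower at 28 days. The count at 8 days and the single fall are each within 1 gene of what these shares give for 12 genes. Ptger2, which encodes the EP2 receptor that like EP4 raises cyclic AMP, rose by a Log2FC of 3.17 ± 0.51, 2.29 ± 0.52 and 2.96 ± 0.54. Pla2g4a, the phospholipase that frees arachidonic acid, rose by 1.25 ± 0.27 at 5 days and 1.04 ± 0.28 at 8 days. Ptgs2 rose at 5 days (58.7 ± 19 against 23.8 ± 9.27 CPM, n = 4 each, Log2FC 0.95 ± 0.31, FDR = 0.024, edgeR) and fell at 28 days (10.7 ± 6.66 against 19.4 ± 4.3 CPM, Log2FC −1.37 ± 0.33, FDR = 0.0036, edgeR). Ptges rose at 28 days, from 3.64 ± 0.607 to 12.2 ± 8.24 CPM (Log2FC 1.26 ± 0.38, FDR = 0.014, edgeR).

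Of 20 measured genes of peroxide defence, 1 rose at 5 days, none at 8 days and 2 at 28 days, with a median Log2FC of −0.07, −0.03 and 0.16. These counts lie at or below the 9.56, 9.36 and 12.7% of all genes called higher. The genes were Txnrd1, a thioredoxin reductase (0.76 ± 0.11 at 5 days), and Gpx1 (1.05 ± 0.25) and Prdx6, a peroxiredoxin (0.77 ± 0.22), at 28 days. Gpx4, which protects membrane lipids, had a Log2FC of −0.50 ± 0.17, −0.32 ± 0.17 and 0.06 ± 0.17 and was not called. In the chitinase family 1 of 5 measured genes rose at 5 and at 8 days and none at 28 days. Each count is within 1 gene of what the same shares give for 5 genes. The gene that rose was Chil3, with 8.69 ± 2.7 against 0.192 ± 0.134 CPM at 5 days (Log2FC 4.71 ± 0.58, FDR = 8.7e-06, edgeR). Chil1 was not called at that day, and the difference between the 2 genes was not tested.

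Of 11 measured S100 proteins and their receptors, 3, 4 and 7 rose on days 5, 8 and 28, and none fell. S100a11 rose by a Log2FC of 2.22 ± 0.48, 1.92 ± 0.50 and 2.20 ± 0.49, and S100a4, a calcium-binding protein of motile cells, by 1.76 ± 0.58 at 8 days and 2.95 ± 0.59 at 28 days. Tlr4, a receptor of calprotectin, rose by 1.99 ± 0.32 at 5 days and 1.44 ± 0.33 at 8 days. Of the acute cytokine response, 10, 9 and 8 of 13 genes rose on these days, among them Il1b by 4.61 ± 0.80 at 5 days and Tnf by 4.29 ± 0.91 at 8 days. S100a8 was thus not called on days when most of the cytokine list was.

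Cell type markers were read on the same days, when 9.56, 9.36 and 12.7% of all genes were called higher. Of 11 infiltrating monocyte markers, 9, 9 and 7 rose on days 5, 8 and 28, and their summed level was 757 to 1510 CPM with rAAV-OVA at 5 days against 87.9 to 242 CPM in controls. Ly6c2, which marks inflammatory monocytes, rose by a Log2FC of 6.04 ± 0.75 at 5 days. Of 6 microglia markers 3, 1 and 5 rose, with Cx3cr1 at 1.30 ± 0.26 at 28 days, and of 12 reactive astrocyte markers 8, 4 and 8 rose, with Cd44 at 3.07 ± 0.55 at 5 days. Of the 2 measured neutrophil markers Csf3r rose at 8 days (1.57 ± 0.47) and at 28 days (1.93 ± 0.47). The part of these cells in the rise of Clec4d and Ptger4 was not tested.

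Markers of other compartments were as follows. Of 10 choroid plexus markers 8 fell at 5 days, beside 4.67% of all genes, led by Ttr (−5.43 ± 1.69), where 1 control, D724, had a summed level of 5760 CPM and the other 3 had 259 to 376 CPM, and none was called at 8 or 28 days. Of 8 meningeal and perivascular fibroblast markers 2 fell at 5 days and 4 rose at 28 days, with Col3a1 at 2.79 ± 0.72, where 1 rAAV-OVA mouse, D845, had a summed level of 1080 CPM and the other 3 had 108, 145 and 178 CPM, beside 118 to 317 CPM in controls. Of 5 endothelial markers 1 fell at 5 days and 2 rose at 28 days, with Cldn5 at 1.15 ± 0.28, and all 4 measured red blood cell markers fell at 5 days, with Hba-a1 at −1.07 ± 0.33. For the latter list 1 control, D745, had a summed level of 829 CPM and the other 3 had 254 to 304 CPM, beside 62.7 to 272 CPM with rAAV-OVA. Of 6 hippocampal neuron markers 1 fell at 5 days, none at 8 days and 5 at 28 days, with Neurod6 at −1.97 ± 0.42. Their part in the members' levels was not tested.

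Over the 31 mice the members fell into different company, which is a description of mice that share vector, day and batch. The genes most like Clec4d in log2 CPM were Hcls1, a signalling adaptor of blood cells, the formyl peptide receptor Fpr2 and Clec4e, each with r = 0.97 and still 0.97 in the 29 mice without D740 and D743. Those most like Ptger4 were Msn, which encodes moesin, with r = 0.96, and Pik3cg and Dap, each with r = 0.95. For Chil1 they were the lectin receptor Clec4a2 (0.86), Siglece (0.83) and the endotoxin co-receptor Cd14 (0.81), which came to 0.74, 0.7 and 0.73 without D740 and D743. For S100a8 they were the chemokine Ccl9 (0.8), Clec4a2 (0.79) and Cd14 (0.77), which came to 0.64, 0.59 and 0.64 without these mice. For Gpx3 they were Itih3 and Adamts5, each at 0.72, which came to 0.52 and 0.63 without the 2 mice.

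Among themselves Clec4d and Ptger4 were the closest pair, with r = 0.94 over the 31 mice, 0.94 over the 15 rAAV-control mice and 0.91 over the 16 rAAV-OVA mice. Over the rAAV-control mice all 10 pairs had r from 0.66 to 0.94. Over the 13 rAAV-control mice left without D740 and D743, Chil1 and Clec4d kept r = 0.77 and Chil1 and Ptger4 0.76. The pairs of S100a8 with Clec4d, Gpx3 and Ptger4 had 0.08, 0.07 and 0, and that with Chil1 had 0.41. In the rAAV-OVA mice Gpx3 had r = −0.05 with Clec4d and −0.39 with S100a8.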

How the data were processed

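Reads had been cleaned with fastp and quantified by the authors with Salmon 1.8.0 on GENCODE M29 (GC correction, genome as decoy). The deposited values are estimated counts per gene (expected counts as whole numbers, not normalized). A gene had been kept when 15 or more of the 31 mice reached 15 counts. All 5 members passed, Clec4d and S100a8 with 16 mice at 15 counts. For both genes most of these mice were in the rAAV-OVA group, for Clec4d at 5, 8 or 28 days. Without that group neither gene would have met the filter. Clec4d was thus kept through the group in which it was called higher, and its calls are read with that limit. Both deposited tables were equal (0 cells differ). Library totals were 19046977 to 57407902 counts.

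Differences were tested over all 15648 genes with edgeR 4.0.16 in R 4.3.3 (TMM, robust quasi-likelihood F-test, 8 groups, 2 surrogate variables from sva 3.50.0, random seed 1), after a test on simulated data. Genes were called at FDR ≤ 0.05 (Benjamini-Hochberg) with |Log2FC| ≥ 0.66. DESeq2 1.42.0 and limma 3.58.1 (voom) served as alternatives, with size factors, other covariates, filters, single days, batches and left-out mice. The members and lists were chosen with earlier results of these data known. Named beside the members were, for each member, the 3 genes with the highest Pearson correlation of log2 CPM (prior count 2), close relatives, and at most 3 called genes a list and day with the largest Log2FC. Some genes this rule selects are not reported here. Groups, days and batches came from the labels. Intervals of 95% cover counting error. Upstream sequences came from RefSeq (GRCm38.p6), a build other than that of the counts.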

Additional observations from a re-analysis of the deposited data

Results flagged for a closer look

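For Clec4d and Ptger4 the difference between vectors at 2 days and at each later day had opposite signs: all rAAV-OVA mice lay below all rAAV-control mice at 2 days and above all of them at 5, 8 and 28 days. For Clec4d the Log2FC was −4.13 at 2 days and 4.15, 4.73 and 6.16 at the later days, and for Ptger4 it was −1.88 and then 1.76, 1.66 and 2.15. For Clec4d at 2 days the nearest mice of the 2 groups had 14 and 11 counts, not apart beyond counting error. The difference between day 2 and the later days was not tested, because the day 2 values chose the genes. The Clec4d values at 28 days depend on the prior count, since the controls held 2 counts.

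In the rAAV-control mice of 28 days Clec4d had 0.077 CPM in D843 and 0 in the other 3. This is listed only because, beside 3 values at 0, any count stands apart, and 2 counts against 0 are not a detectable difference at this depth. Chance marks about 1 in 20 sets of 4 continuous values, which does not hold for such counts.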

How the results depend on the processing

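No paired analysis was possible because every replicate name belongs to 1 mouse. The number of members called was 2 at 5 days and 1 with a filter of 15 counts in every mouse, which removes Clec4d and S100a8 before testing. At 8 days it was 2, and 1 without covariates, with the batch label and with that filter, and 0 from the mice of 8 days alone. At 28 days it was 3, and 4 with DESeq2, without covariates and with the batch label, which add Chil1, 2 with voom and 0 in batch 2 alone, and with the filter it was 3 with Chil1 in place of Clec4d, and from 28 day mice alone and in batch 1 alone 3 with Chil1 in place of Gpx3. For rAAV-OVA at 5 against 28 days it was 0, and 1 with DESeq2 and with the batch label. Leaving out each mouse in turn gave 2 to 2 members at 5 days, 1 to 2 at 8 days, 2 to 3 at 28 days, 0 to 1 (1 without D667) for rAAV-OVA at 5 against 28 days and 0 in the other comparisons. At 2 days 5 members were lower by a Log2FC of 0.66 or more, which leaving out single mice kept at 5, and 3 in batch 2 alone. Among single mice left out D743 moved the sizes most, for S100a8 from −4.52 to −1.89, Clec4d −4.13 to −2.35, Gpx3 −2.52 to −1.36, Chil1 −2.46 to −1.72 and Ptger4 −1.88 to −1.27. In rAAV-control mice 5 members were higher by 0.66 or more at 2 days than at each later day, 4 to 5 with single mice left out, and 3 without D740 and D743, an alternative chosen after seeing the data.

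These signs changed. At 5 days Chil1 (−0.15) was 0.13 without covariates, 0.13 with the batch label, 0.16 from that day alone and −0.32 to 0.24 over left-out mice, and Gpx3 (0.03) was −0.09, −0.09 and −0.06 in these settings and −0.0020 to 0.17 over left-out mice. Over left-out mice S100a8 at 5 days (0.24) ran from −0.20 to 0.60, Chil1 at 8 days (0.24) from −0.12 to 0.83 and Gpx3 at 8 days (−0.71) from −1.02 to 0.41, the last without D720. S100a8 at 2 days (−4.52) was 0.06 in batch 2 alone. Without D740 and D743, 2 against 5 days in controls was −0.15 for Gpx3 (2.04 with them) and −0.57 for S100a8 (3.57), and 2 against 8 days −0.99 for Gpx3 (1.21), whose value with single mice left out ran from −0.14 to 2.20. The causes were not tested. Counts under 15 in 15 mice limit Clec4d and S100a8.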
